A study of Homo sapiens with 45 samples.

Results

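The late transcriptional response to palbociclib (PB) was compared between a pair of neuroblastoma lines, SK-N-BE(2)C after 7 d and SH-SY5Y after 5 d, by asking of every gene whether its change from the untreated cells of its own line differed between the lines. Neuroblastoma is a childhood tumour of the sympathetic nervous system lineage, and both are established lines of it. SK-N-BE(2)C carries amplified MYCN and SH-SY5Y does not. The comparison took 20 of the 45 libraries of the series, namely 5 controls and 5 late PB libraries of each line. PB was given at 1 μM in the same serum-containing medium, and the study describes replicates as different passages plated in independent experiments. By chi-square per degree of freedom between the counts of a pair of libraries, SK-N-BE(2)C controls 3, 4 and 5 lay at 2.43 to 3.18 from each other. Other pairs of these controls lay at 11.2 to 19.2, and SH-SY5Y control pairs at 8 to 14.4. At 7 d, SK-N-BE(2)C replicates 4 and 5 lay at 5.6 and other pairs at 19.3 to 77.8. Whether these are separate cultures was not tested, and each SE takes all 5 as independent. Untreated cells were harvested alongside the 24 h libraries, so that days in culture go with late treatment in both lines. In addition 7 against 5 days goes with the line, so that line and duration cannot be told apart in any late comparison of these lines below. Only the 24 h values, and those of IMR-32 beside SH-SY5Y at 5 d, compare lines at the same time. Each line is 1 cell line, so that a difference between the lines is a difference between these lines and not between kinds of tumour.

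PB inhibits CDK4 and CDK6, the kinases that phosphorylate the retinoblastoma protein RB at the start of the cell cycle. Unphosphorylated RB and its relatives p107 and p130 hold E2F transcription factors in check, and the genes of DNA replication and mitosis then fall. Neuroblasts that leave the cycle can go on to extend neurites, and they express axonal, synaptic and secretory granule genes, while a more mesenchymal form of the tumour expresses matrix and migration genes.

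The 20 libraries held 13459219 to 23790619 counts each (median 18718452.5), and 15209 of the 29159 genes in the tables were tested. The interaction, which is the log2 fold change in SK-N-BE(2)C minus that in SH-SY5Y, was called where the adjusted p was under 0.05 and the size over 0.5. By this rule 3536 genes were called, 23.2% of those tested. The response was more positive in SK-N-BE(2)C for 1957 genes (12.9%) and more negative for 1579 (10.4%). Against their own controls, SK-N-BE(2)C raised 24.8% of genes and lowered 21.1%, and SH-SY5Y raised 18.2% and lowered 16.2%. MYCN checked the line labels, at 3570.0 to 4767 CPM (counts divided by the scaled library size) in the 5 SK-N-BE(2)C controls and 4.76 to 8.001 in the 5 SH-SY5Y controls. Of 13 adrenergic neuroblast markers every one was tested, and their summed level was 6903 to 7496 CPM in SK-N-BE(2)C controls and 6417 to 8296 in SH-SY5Y controls. TH, which makes the precursor of the catecholamines, was at 228 CPM in SK-N-BE(2)C controls and at 0.337 in SH-SY5Y controls.

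Among the SK-N-BE(2)C libraries, replicate 1 at 7 d stood apart from the other 4 in cell cycle genes and in several named genes. It was the outlying value of its group for 9 of the 89 genes named here, each time on the side nearest to the controls. Its summed level of 43 S phase genes was 2495 CPM, where the other 4 libraries had 1388 to 2170, and the controls 6109 to 6328. Its summed level of 54 G2 and mitosis genes was 4834 CPM against 2715 to 3942 in the other 4. SH-SY5Y replicate 5 at 5 d likewise had the highest sums of its group, 2505 and 4181 CPM, where the other 4 libraries had 1098 to 1916 and 2286 to 3953. Over all genes, SK-N-BE(2)C replicate 3 at 7 d lay about as far from the others (24.5 to 77.8 in chi-square per degree of freedom) as replicate 1 did (22.3 to 77.8). Without SK-N-BE(2)C replicate 1 at 7 d 4043 interactions were called in place of 3536. Over all fits that left out 1 library the count was 3241 to 4043. The values of replicate 1 are given below with those of the others.

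Opposite changes made up a small share of the genes that differed. Of the 3536 genes, 85 rose in SK-N-BE(2)C and fell in SH-SY5Y, and 45 did the reverse, each called in both lines. A further 325 rose and 401 fell in SK-N-BE(2)C alone, and 125 rose and 110 fell in SH-SY5Y alone. A gene was counted for 1 line alone only if the other line was not called and the 95% interval of its change lay within 0.5 of 0 on the log2 scale. Both lines moved the same way with unequal size in 714 genes. Of those that rose, 394 rose more in SK-N-BE(2)C and 58 more in SH-SY5Y. Of those that fell, 215 fell more in SK-N-BE(2)C and 47 more in SH-SY5Y. The remaining 1232 genes met none of these rules, and 499 were below 1 CPM throughout in 1 line and are not described as a class.

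**Figure D1:**
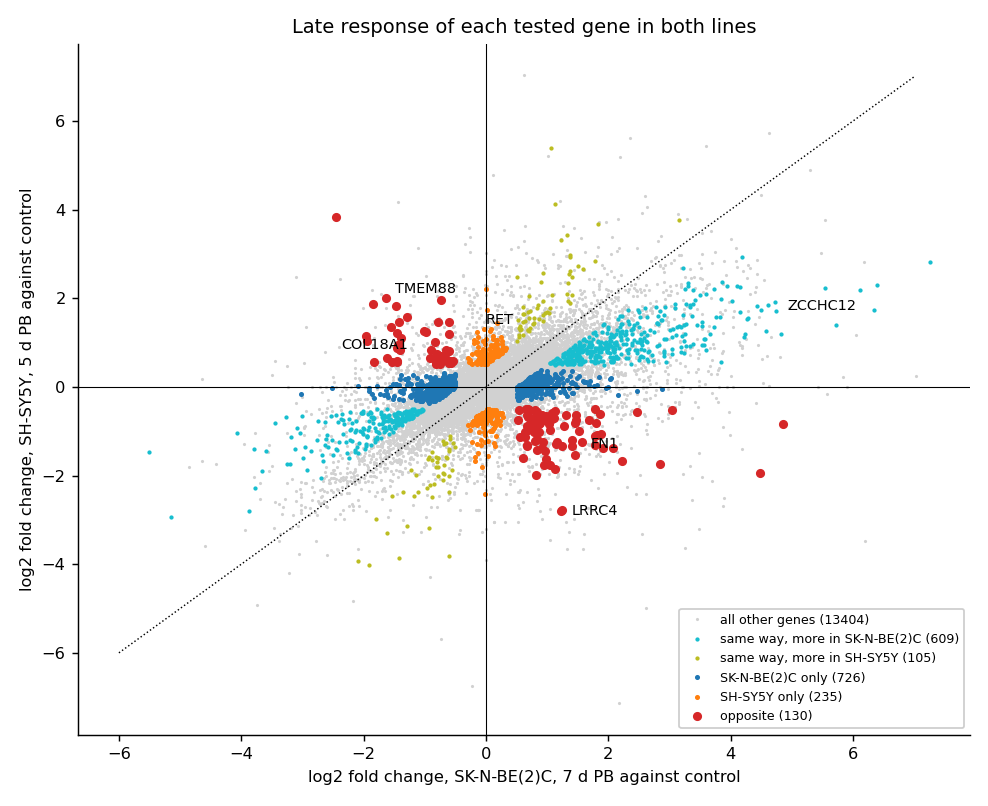
Log2 fold change of each of the 15209 tested genes in SK-N-BE(2)C (x axis, 7 d PB against control) and SH-SY5Y (y axis, 5 d PB against control), with classes of the interaction in colour and the line of equal change dotted. Opposite genes (130, red) sit where the changes have unlike signs, and the genes that moved alike but more in SK-N-BE(2)C (609, cyan) lie nearer to the x axis than the dotted line.

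The 12 named genes with opposite changes were those with the largest interactions among protein-coding genes at 5 CPM or more in both lines whose control and late libraries did not overlap in either. Here and below this limit was met by the mean of the control or of the late group of each line, so that the other group may lie under it. Those that rose in SK-N-BE(2)C and fell in SH-SY5Y were LRRC4, PRIMA1, LMO7, REEP1, FN1 and PLXNA2, with interactions of 2.73 to 4.02. Those that fell in SK-N-BE(2)C and rose in SH-SY5Y were TMEM88, NANOS1, UNC93B1, FGFR4, TRIL and COL18A1, with interactions of -3.65 to -1.84.

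LRRC4 (7:127667124-127672160 on GRCh37, minus strand) encodes a postsynaptic adhesion protein that binds netrin-G2. In SK-N-BE(2)C it was at 6.45, 7.70, 7.34, 6.85 and 6.94 CPM in the controls and at 10.96, 18.7, 19.4, 17.2 and 17.6 CPM at 7 d. In SH-SY5Y it was at 9.80, 6.78, 6.16, 8.001 and 7.46 CPM in the controls and at 0.458, 0.873, 0.861, 0.315 and 3.21 CPM at 5 d. The controls of the lines overlapped and the late libraries did not, so that lines with about equal LRRC4 parted under PB. The change was 1.25 ± 0.29 (log2, SE, n = 5 per group) in SK-N-BE(2)C against -2.77 ± 0.35 in SH-SY5Y, and the interaction was 4.02 ± 0.46 (adjusted p = 2.4e-06). Its whole length overlaps a gene annotated on the other strand, and which strand was counted was not stated, so that reads of both cannot be told apart.

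PLXNA2, a receptor for class 6 semaphorins in axon guidance, began somewhat lower in SK-N-BE(2)C and ended higher there. SK-N-BE(2)C controls held 96.3, 124, 148, 136 and 129 CPM and the 7 d libraries 429.6, 342, 226, 298 and 376. SH-SY5Y controls held 286, 167, 179.9, 187 and 208 CPM and the 5 d libraries 60.1, 72.2, 57.3, 108 and 111. Every SK-N-BE(2)C library at 7 d was above its controls and every SH-SY5Y library at 5 d was below its own. The interaction was 2.73 ± 0.29 (adjusted p = 1.9e-06).

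FN1 (2:216225163-216300796, minus strand) encodes fibronectin, a matrix glycoprotein typical of mesenchymal cells. It was at 33.7, 49.2, 39.3, 38.0 and 35.9 CPM in SK-N-BE(2)C controls and at 68.0, 226, 154, 62.8 and 70.6 CPM at 7 d. It was at 138, 148, 146, 127 and 136 CPM in SH-SY5Y controls and at 63.4, 65.8, 61.6, 55.9 and 45.9 CPM at 5 d. The SK-N-BE(2)C rise was uneven, with 2 libraries at 154 and 226 CPM and 3 between 62.8 and 70.6, while the fall in SH-SY5Y was even. FN1 rose by 1.57 ± 0.28 and fell by 1.25 ± 0.27 in the respective lines, with an interaction of 2.81 ± 0.39 (adjusted p = 2.9e-05).

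The other 3 genes of this direction differed in where they began. PRIMA1, the membrane anchor of acetylcholinesterase, went in SK-N-BE(2)C from 59.0 ± 3.35 to 161 ± 71.4 CPM (SD, n = 5) and from 40.3 ± 5.81 to 13.9 ± 6.75 CPM in SH-SY5Y. LMO7, a scaffold of cell junctions, went from 3.58 ± 0.404 to 7.84 ± 2.24 CPM and from 26.8 ± 4.41 to 7.43 ± 2.07 CPM, so that the lines met at a similar level. REEP1, which shapes the endoplasmic reticulum and is mutated in hereditary spastic paraplegia, went from 1.57 ± 0.176 to 5.59 ± 0.68 CPM and from 5.29 ± 0.704 to 2.51 ± 1.29 CPM, exchanging the order of the lines.

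**Figure D2:**
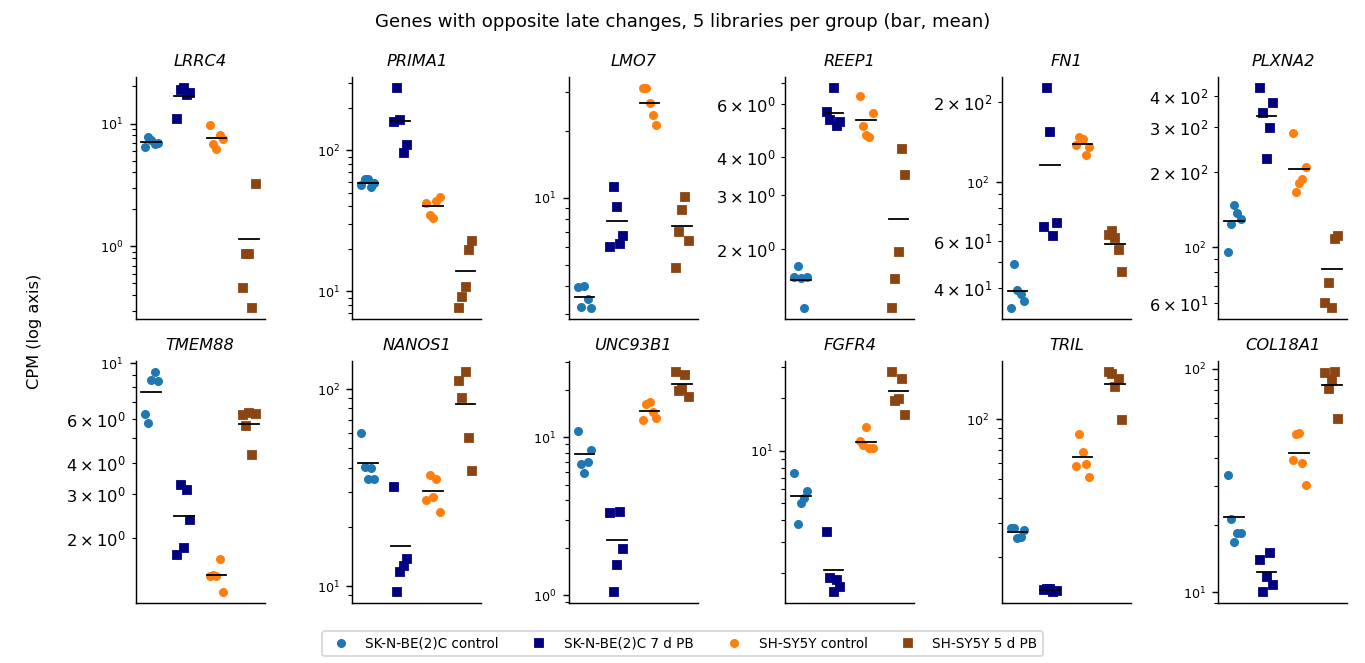
CPM (log axis) of the 12 named opposite genes in each library of the 4 groups, with a bar at each group mean. In the upper row SK-N-BE(2)C libraries at 7 d sit above their controls and SH-SY5Y libraries at 5 d below theirs, and in the lower row both are turned round, with no overlap of control and late libraries within a line.

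TMEM88, an inhibitor of Wnt signalling that binds Dishevelled, had the largest interaction of the 6 named genes in the other direction. It was at 6.25, 5.76, 8.57, 9.24 and 8.50 CPM in SK-N-BE(2)C controls and at 1.71, 3.26, 1.82, 3.11 and 2.35 CPM at 7 d. It was at 1.41, 1.42, 1.41, 1.64 and 1.22 CPM in SH-SY5Y controls and at 6.21, 5.60, 6.30, 4.30 and 6.25 CPM at 5 d. The lines changed places, each late group falling near the other line's controls. The interaction was -3.65 ± 0.27 (adjusted p = 8.9e-09), made of -1.64 ± 0.19 and 2.01 ± 0.20. It was already called at 24 h, at -2.44 (adjusted p = 6.2e-07 in the fit of 45 libraries).

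TRIL, a partner of the receptor TLR4, had even values in SK-N-BE(2)C. SK-N-BE(2)C controls held 28.2, 28.1, 25.0, 25.3 and 27.4 CPM and the 7 d libraries 13.6, 13.8, 13.9, 13.4 and 13.5. SH-SY5Y controls held 57.9, 83.9, 68.6, 59.1 and 50.7 CPM and the 5 d libraries 174, 170.0, 146, 159.8 and 99.6. A gap between the lines that existed before PB widened, and the interaction was -2.20 ± 0.19 (adjusted p = 4.7e-08). UNC93B1, which carries endosomal Toll-like receptors to their compartment, widened likewise, in SK-N-BE(2)C from 7.79 ± 1.98 to 2.24 ± 1.04 CPM and from 14.7 ± 1.70 to 21.7 ± 3.50 CPM in SH-SY5Y.

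FGFR4, a receptor tyrosine kinase of the fibroblast growth factor family, fell from 7.46, 3.83, 4.98, 5.34 and 5.84 CPM to 3.43, 1.88, 1.56, 1.82 and 1.67 CPM in SK-N-BE(2)C. It rose from 11.3, 10.7, 13.7, 10.3 and 10.3 CPM to 28.3, 19.3, 19.7, 25.7 and 15.9 CPM in SH-SY5Y. The highest late SK-N-BE(2)C value, in replicate 1, stayed under the lowest control, and the interaction was -2.38 ± 0.29 (adjusted p = 2.9e-06). COL18A1, a basement membrane collagen, went in SK-N-BE(2)C from 21.7 ± 6.79 to 12.3 ± 2.096 CPM and from 42.0 ± 9.14 to 84.5 ± 15.3 CPM in SH-SY5Y. NANOS1, an RNA-binding repressor of translation, went from 42.0 ± 10.2 to 15.9 ± 9.12 CPM and from 30.3 ± 5.41 to 83.6 ± 35.4 CPM, with replicate 1 at 32.0 CPM beside 9.40 to 13.8 in the other 7 d libraries.

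The named genes of 1 line alone at the late time had the largest interactions of their class among protein-coding genes at 5 CPM or more in both lines, and were chosen so that control and late libraries did not overlap in the line that changed. In SK-N-BE(2)C, INSRR, SATB1, TRIM36 and RNF112 were those that rose and NT5DC3, CRTAP, LONRF1 and EPHB4 those that fell. For the 4 that rose, SK-N-BE(2)C began under SH-SY5Y and moved toward it, whereas in the whole class the gap between the lines was smaller after PB in 144 of 325 (44.3%). INSRR, a receptor kinase related to the insulin receptor, rose from 2.32, 2.60, 3.27, 4.22 and 3.30 CPM to 13.3, 30.9, 28.6, 21.6 and 18.9 CPM in SK-N-BE(2)C. In SH-SY5Y it was at 35.3, 34.6, 36.0, 33.4 and 33.1 CPM and then at 36.5, 35.5, 24.9, 37.5 and 33.3 CPM, which overlap. The interaction was 2.92 ± 0.26 (adjusted p = 1.1e-07). At 24 h INSRR had risen in SH-SY5Y too, by 0.87 (adjusted p = 0.0013) beside 1.35 in SK-N-BE(2)C. INSRR lies wholly within a region with a gene on the other strand, as LRRC4 does.

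SATB1, an organiser of chromatin loops, rose in SK-N-BE(2)C from 32.4, 30.1, 31.7, 35.4 and 36.8 CPM to 90.7, 180.0, 162, 110.0 and 119 CPM. SH-SY5Y held 133, 156, 140.0, 156 and 157 CPM before and 169.7, 165, 135, 144 and 129.9 CPM after 5 d. Every late SK-N-BE(2)C library was above its controls, and 3 of the 5 were still below all SH-SY5Y libraries. The SH-SY5Y change was 0.00 ± 0.14. The ubiquitin ligase TRIM36 rose in SK-N-BE(2)C from 6.78 ± 0.722 to 26.6 ± 3.67 CPM beside 28.6 ± 3.37 and 28.1 ± 1.496 CPM in SH-SY5Y. RNF112, a RING finger protein of neural tissue, rose from 3.29 ± 0.37 to 11.8 ± 1.85 CPM beside 22.9 ± 2.33 and 26.6 ± 2.20 CPM, although at 24 h it had risen in SH-SY5Y by 0.60 (adjusted p = 1.3e-06).

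The largest fall among genes counted for SK-N-BE(2)C alone was that of NT5DC3, from 20.9, 21.2, 20.1, 15.2 and 17.6 CPM to 2.12, 1.55, 2.68, 2.70 and 2.53 CPM. SH-SY5Y held 15.7, 13.0, 14.0, 15.8 and 16.0 CPM and then 12.7, 11.04, 13.9, 13.6 and 15.4 CPM. The controls of the lines were near each other and only SK-N-BE(2)C left that level, with an interaction of -2.87 ± 0.19 (adjusted p = 1.4e-09). CRTAP, part of the complex that hydroxylates prolines of collagen, fell from 86.4 ± 7.71 to 22.9 ± 5.31 CPM beside 188 ± 15.4 and 185 ± 13.5 CPM in SH-SY5Y. LONRF1 fell from 14.7 ± 2.29 to 3.93 ± 1.57 CPM beside 10.5 ± 0.9998 and 9.78 ± 0.945 CPM. EPHB4, a receptor for ephrin-B2, fell from 9.28 ± 2.08 to 2.53 ± 0.952 CPM beside 126 ± 9.64 and 112 ± 12.7 CPM.

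In SH-SY5Y alone MOK, IGSF8, RET and RPL22L1 rose and ENC1, CCDC3, P2RY6 and LAMP5 fell. RET (10:43572512-43625799, plus strand) encodes the receptor for the glial cell line-derived neurotrophic factor family. The lines overlapped in RET before treatment, with 663, 616, 807, 823 and 812 CPM in SK-N-BE(2)C and 642, 859, 769, 827 and 680.4 CPM in SH-SY5Y. After PB, SK-N-BE(2)C held 836, 534, 581, 718 and 745 CPM, within the range of its controls but for 1 library above and 2 below, and SH-SY5Y held 1948, 1806, 1611, 1786 and 1105 CPM, all above theirs. The interaction was -1.25 ± 0.20 (adjusted p = 7.2e-05). At 24 h RET had a change of 0.42 in SK-N-BE(2)C against 0.93 in SH-SY5Y, and the interaction of -0.51 was not called (adjusted p = 0.35).

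IGSF8, a cell surface protein that binds tetraspanins, rose from 77.0 ± 13.2 to 162 ± 26.9 CPM in SH-SY5Y beside 12.6 ± 2.14 and 10.9 ± 1.02 CPM in SK-N-BE(2)C. MOK, a kinase of the MAPK superfamily, rose from 4.23 ± 0.853 to 9.97 ± 1.73 CPM beside 61.8 ± 3.40 and 55.9 ± 4.26 CPM. RPL22L1, a paralogue of the ribosomal protein RPL22 that may share reads with it, rose from 13.6 ± 0.881 to 27.0 ± 6.30 CPM beside 53.1 ± 2.06 and 46.4 ± 8.63 CPM.

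ENC1, a kelch protein of neuroectoderm that binds actin, had the largest fall in SH-SY5Y alone. It went from 298, 194, 221, 221 and 259 CPM to 28.0, 29.8, 39.8, 64.6 and 61.3 CPM there. In SK-N-BE(2)C it was at 104, 104, 140.2, 141 and 139 CPM in the controls and at 118, 110.0, 164, 114 and 114 CPM at 7 d, which overlap. PB thus turned the order of the lines round, with an interaction of 2.40 ± 0.29 (adjusted p = 7.2e-06). At 24 h the pattern was another, with SK-N-BE(2)C at -1.03 (adjusted p = 0.0074) and SH-SY5Y at 0.43 (adjusted p = 0.28). LAMP5, a lysosome-associated protein of neurons, fell from 43.6 ± 2.50 to 17.3 ± 2.85 CPM in SH-SY5Y beside 255 ± 23.7 and 283 ± 84.7 CPM in SK-N-BE(2)C. P2RY6, a receptor for UDP, fell from 7.91 ± 1.87 to 2.49 ± 1.10 CPM beside 86.0 ± 5.87 and 76.1 ± 6.42 CPM. CCDC3, a secreted protein, fell from 5.85 ± 0.956 to 1.70 ± 1.03 CPM beside 23.1 ± 2.44 and 22.0 ± 3.23 CPM.

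**Figure D3:**
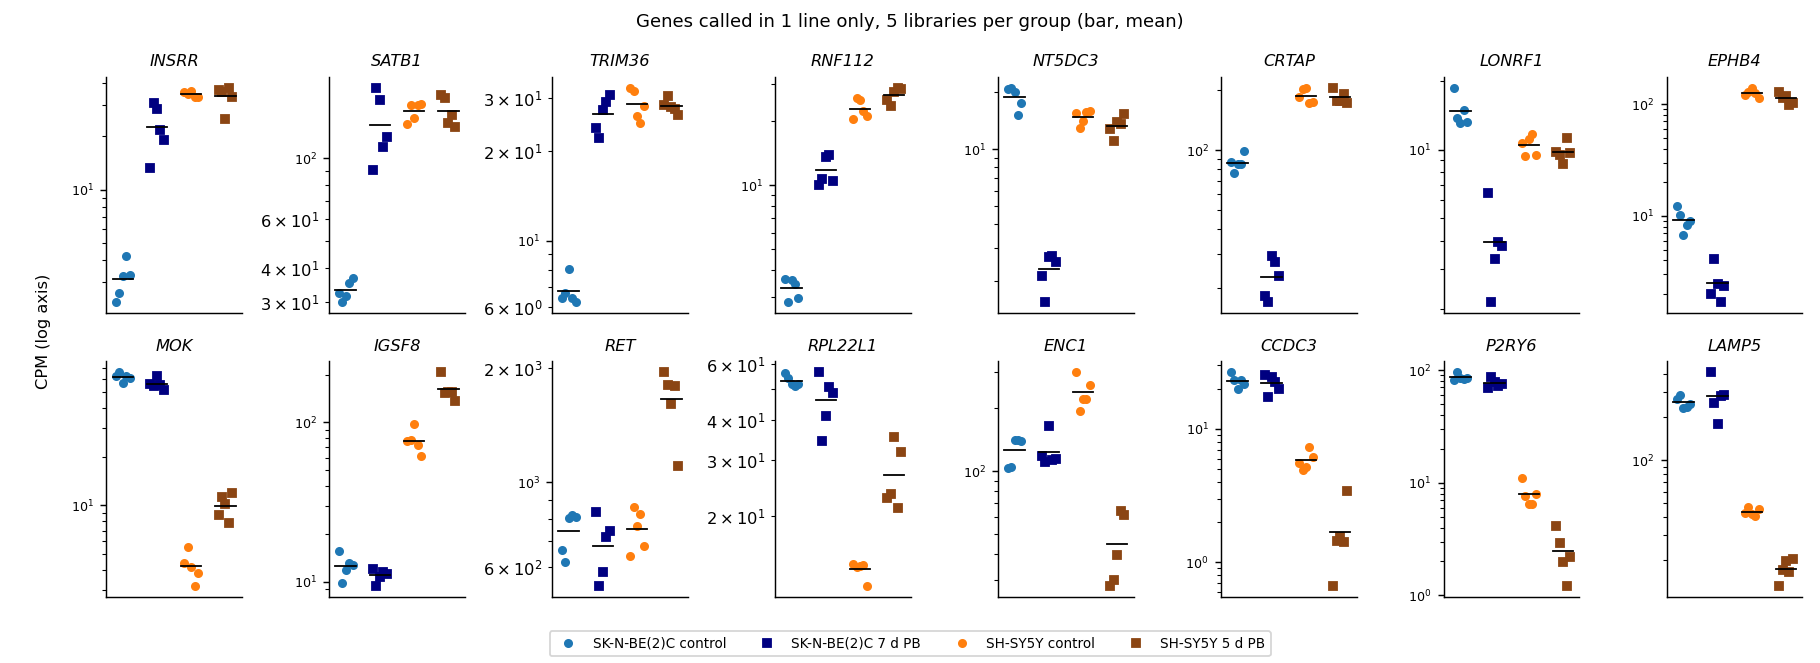
CPM (log axis) of the 16 named genes called in 1 line alone, in each library of the 4 groups, with a bar at each group mean. The upper row shows 4 genes that rose and 4 that fell in SK-N-BE(2)C, and the lower row the same for SH-SY5Y, and in each panel the other line has overlapping control and late libraries.

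Where both lines rose and SK-N-BE(2)C rose more, it often started lower. For 394 genes that rose more in SK-N-BE(2)C, 62 had a higher control level there than in SH-SY5Y, and the gap between the lines was smaller after PB than before it in 271 (68.8%). Of the 11673 genes with no interaction called, 5961 had the higher control in SK-N-BE(2)C, and the gap was smaller after PB in 47.7%. Of the 58 genes that rose more in SH-SY5Y, 38 had the higher control in SK-N-BE(2)C. The controls enter both the gap and the change. SHC2, an adaptor of neurotrophin receptors, began lower in SK-N-BE(2)C and rose more there. It rose from 1.21, 1.46, 0.643, 0.877 and 1.21 CPM to 48.0, 60.1, 64.7, 59.5 and 58.2 CPM in SK-N-BE(2)C. It rose from 26.2, 32.5, 29.1, 27.5 and 18.5 CPM to 76.1, 70.7, 58.3, 80.8 and 65.2 CPM in SH-SY5Y. The late libraries of the lines overlapped although their controls lay far apart, and the interaction was 4.32 ± 0.23 (adjusted p = 3.8e-11). ZCCHC12 rose from 0.396 ± 0.3 to 31.5 ± 9.97 CPM and from 4.68 ± 0.875 to 15.6 ± 3.82 CPM, passing SH-SY5Y.

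Fewer genes responded alike but more in SH-SY5Y. C4orf50 rose in SK-N-BE(2)C from 3.995 ± 0.928 to 14.1 ± 4.01 CPM and from 0.404 ± 0.128 to 5.24 ± 2.25 CPM in SH-SY5Y. GPR155, a lysosomal membrane protein that senses cholesterol, rose from 31.2 ± 5.52 to 80.8 ± 9.08 CPM and from 19.1 ± 3.87 to 117 ± 15.8 CPM. FLT1, a receptor for vascular endothelial growth factor, fell from 10.6 ± 1.25 to 2.52 ± 0.86 CPM and from 7.96 ± 3.47 to 0.518 ± 0.261 CPM. NEURL1B, a ubiquitin ligase of the Notch pathway, fell from 29.0 ± 3.005 to 19.7 ± 0.916 CPM and from 59.3 ± 3.98 to 16.3 ± 5.11 CPM. In the opposite case, falls that were larger in SK-N-BE(2)C, the calcium channel ITPR3 had an interaction of -3.04 ± 0.59 (adjusted p = 0.00065) and the actin-binding calponin CNN2 one of -2.57 ± 0.28 (adjusted p = 1.3e-06).

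The gene lists below show whether functional groups differed, by the number of members called in each direction and by the median interaction, beside 23.2% called and a median of -0.00175 over all genes tested. A member that was not called is not thereby shown to respond alike.

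Cell cycle genes fell in both lines. Of 54 G2 and mitosis genes 50 fell in SK-N-BE(2)C, and 52 did so in SH-SY5Y, and 4 (7.41%) had an interaction called, 2 in each direction. Of 43 S phase genes all fell in SK-N-BE(2)C, and 42 did so in SH-SY5Y, and 8 (18.6%) fell more in SK-N-BE(2)C, with a list median of -0.29. CLSPN, a mediator of the replication checkpoint, fell in SK-N-BE(2)C from 63.4 ± 5.86 to 6.81 ± 4.24 CPM and from 120 ± 7.67 to 35.7 ± 11.1 CPM in SH-SY5Y. Among the mitotic genes GAS2L3, which links actin to microtubules, fell more in SH-SY5Y, by 2.38 ± 0.24 on the log2 scale against 1.11 ± 0.23. PSRC1, a protein of the spindle, fell more in SK-N-BE(2)C (interaction -1.05 ± 0.37, adjusted p = 0.036), a call lost on leaving out any 1 of 11 libraries.

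In the network of cyclin D, CDK and RB itself, 6 of 27 genes had an interaction called, 1 higher and 5 lower. CDK2, the kinase of the S phase entry step, fell by 2.96 ± 0.29 in SK-N-BE(2)C and by 1.35 ± 0.26 in SH-SY5Y (interaction -1.61 ± 0.38, adjusted p = 0.003). E2F7, a repressor among the E2Fs, fell by 5.15 ± 0.38 and by 2.93 ± 0.30. CDKN2C, which encodes the CDK4 and CDK6 inhibitor p18, fell by 2.69 ± 0.13 and by 2.05 ± 0.12. CDK2 overlaps a gene on the other strand over its whole length.

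The other called members were E2F4, RBL2 and CDKN2B. E2F4, the E2F that works with p107 and p130, was at 93.7, 96.0, 96.5, 96.7 and 106 CPM in SK-N-BE(2)C controls and at 89.7, 77.0, 73.1, 84.6 and 79.5 CPM at 7 d. It was at 82.7, 91.7, 92.0, 93.3 and 91.2 CPM in SH-SY5Y controls and at 108, 108, 111, 104 and 109 CPM at 5 d. These are small shifts, of -0.28 ± 0.06 and 0.26 ± 0.06, with no overlap of control and late libraries in either line, and neither passed the limit of 0.5 alone although their difference did (-0.54 ± 0.08). Without SK-N-BE(2)C replicate 3 at 7 d the difference was -0.45. RBL2, which encodes p130, rose in SH-SY5Y alone, by 0.52 ± 0.08 beside -0.23 ± 0.08 in SK-N-BE(2)C. CDKN2B, which encodes p15, was called but lay below 1 CPM in SH-SY5Y, at 0.258 ± 0.179 and 0.0713 ± 0.0792 CPM, and it too overlaps a gene on the other strand over its whole length.

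The ribosome biogenesis genes that differed all had the more negative change in SK-N-BE(2)C. Of 44 genes that process ribosomal RNA or assemble ribosomal subunits, 31 fell in SK-N-BE(2)C, and 11 did so in SH-SY5Y. The interaction was called for 13 (29.5%) and not for 31, and the list median was -0.32. Their summed level went from a range of 10210 to 10520 CPM to one of 5050 to 6382 in SK-N-BE(2)C, and from 6134 to 6646 CPM to 4108 to 5385 in SH-SY5Y. SK-N-BE(2)C began above the SH-SY5Y controls and ended within or below their range. LYAR, a nucleolar regulator of ribosomal RNA synthesis, fell from 50.7 ± 1.48 to 21.0 ± 3.33 CPM beside 31.2 ± 2.57 and 25.8 ± 4.99 CPM in SH-SY5Y (interaction -1.0 ± 0.16, adjusted p = 8.2e-05).

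MYC family proteins are known to bind the E-box CACGTG near the start of such genes, and MYCN itself was among the genes with an interaction called. MYCN fell from 4767, 3613, 3570.0, 4239 and 3954 CPM to 2539, 1906, 2595, 2728 and 2560.0 CPM in SK-N-BE(2)C. In SH-SY5Y it was at 4.76, 6.32, 5.86, 8.001 and 5.73 CPM and then at 12.1, 7.5, 6.21, 8.23 and 3.21 CPM. All late SK-N-BE(2)C libraries were under their controls and the SH-SY5Y groups overlapped, and the interaction was -1.0 ± 0.29 (adjusted p = 0.013). At 24 h the MYCN interaction had the other sign, at 0.87 (adjusted p = 0.036).

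RefSeq promoter windows (GRCh38.p14, from 250 bases before to 50 after the start) matched 37 of the 44 ribosome biogenesis genes. CACGTG, which reads the same on both strands, was in 13 of the 37 (35.1%) and in 7.26% of all 35116 windows of that length. Among the 13 genes lower in SK-N-BE(2)C, 12 had a window and 6 held the motif, and among the genes not called 7 of 25 did (28%). The sites of the 6 genes that were lower in SK-N-BE(2)C and held the motif are shown, with the motif in capitals. Each is read 5′ to 3′ on the strand of the gene.
RRP9 (chr3:51941892-51941921, minus strand): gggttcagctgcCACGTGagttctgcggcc
NOC3L (chr10:94362903-94362932, minus strand): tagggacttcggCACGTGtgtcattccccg
PNO1 (chr2:68157885-68157914, plus strand): ggtgcagctgcgCACGTGtttcagccggca
NOP2 (chr12:6568242-6568268, minus strand): aggtccggattgCACGTGgagggccgc
FBL (chr19:39846356-39846385, minus strand): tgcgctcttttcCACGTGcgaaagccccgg
MRTO4 (chr1:19251807-19251836, plus strand): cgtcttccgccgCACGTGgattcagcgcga
These genes fell by 0.59 to 1.49 on the log2 scale in SK-N-BE(2)C. FBL, the methyltransferase fibrillarin, went from 351 to 125 CPM there and from 206 to 110 CPM in SH-SY5Y. NOP2, another ribosomal RNA methyltransferase, went from 124 to 82.4 CPM and stayed at 82.6 and 82.9 CPM in SH-SY5Y. A match describes the letters of the window and not binding, which was not measured here.

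Of 73 structural proteins of the cytosolic ribosome 2 had an interaction called (2.74%), both higher in SK-N-BE(2)C. In SK-N-BE(2)C 4 rose and 1 fell, and in SH-SY5Y 1 rose. RPL3 rose in SK-N-BE(2)C from 1413 ± 52.5 to 2233 ± 403 CPM beside 1142 ± 98.9 and 1193 ± 203 CPM in SH-SY5Y, and like other ribosomal protein genes it has processed copies that may share its reads. Of the mitochondrial ribosome genes 1 of 75 was higher and 10 were lower by the interaction (14.7% called, median -0.28). Among the called, MRPL52 fell by 0.74 ± 0.11 in SK-N-BE(2)C beside -0.01 ± 0.11 in SH-SY5Y, and MRPS6 differed the other way (interaction 0.65 ± 0.15). The respiratory chain had 2 genes higher and 2 lower of 76. At 5 CPM or more in both lines NDUFC2 of complex I was the highest of them (0.93 ± 0.19) and SDHD of complex II the lowest (-0.64 ± 0.09).

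Genes of the p53 pathway were more often higher than lower by the interaction. Of 42 tested, 12 were higher and 3 lower by the interaction (35.7% called, median 0.13), with 12 rising and 11 falling in SK-N-BE(2)C against 5 and 12 in SH-SY5Y. The median change of the list was 0.03 in the former and -0.23 in the latter. TP53INP1, a stress protein that acts in autophagy and p53 signalling, rose from 1.92, 2.08, 3.86, 3.67 and 3.88 CPM to 57.4, 75.6, 73.1, 76.4 and 77.6 CPM in SK-N-BE(2)C. It rose from 38.0, 52.3, 44.7, 34.2 and 36.6 CPM to 106, 111, 95.3, 97.0 and 82.0 CPM in SH-SY5Y. The interaction was 3.32 ± 0.22 (adjusted p = 3.8e-09) and had been called at 24 h at 2.11 (adjusted p = 1.9e-08). Its whole length overlaps a gene on the other strand. BBC3, which encodes the death-promoting protein PUMA, rose by 2.65 and by 0.80. AEN, an apoptosis-linked nuclease, fell by 1.40 ± 0.12 and by 0.58 ± 0.12. CDKN1A, which encodes the CDK inhibitor p21, had an interaction of 1.08 ± 0.59 that was not called (adjusted p = 0.16).

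Axonal, synaptic and channel genes were more often higher than lower by the interaction. Of 58 genes of the axon and neuronal cytoskeleton, 19 were higher and 3 lower by the interaction (37.9% called, median 0.43), with 29 rising in SK-N-BE(2)C against 22 in SH-SY5Y. PAK3, a kinase of dendritic spines and axons, rose from 1.28 ± 0.583 to 16.8 ± 4.05 CPM and from 48.2 ± 4.59 to 111 ± 7.86 CPM. DCX, the microtubule protein of migrating neurons, rose by 2.54 and by 0.94. The microtubule proteins MAP1B and MAP2 rose in SK-N-BE(2)C alone, by 0.82 and 0.75, as did the membrane anchor ANK2, by 1.33, and the intermediate filament protein INA, by 0.52. The axonal adhesion protein CNTNAP2 went the other way, in SK-N-BE(2)C from 154 ± 21.9 to 23.1 ± 15.1 CPM beside 6.79 ± 1.30 and 3.98 ± 1.15 CPM in SH-SY5Y, with replicate 1 at 50.2 CPM and the other 7 d libraries at 15.2 to 17.4.

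Of 68 synapse genes 20 were higher and 6 lower (38.2% called, median 0.28). SYNGR3, a vesicle protein, rose from 2.20 ± 1.24 to 20.1 ± 5.61 CPM and from 19.8 ± 2.12 to 51.1 ± 8.89 CPM. SYT9, a calcium sensor of release, was at 30.9 ± 8.02 and 43.99 ± 7.15 CPM in SK-N-BE(2)C and rose from 17.6 ± 1.85 to 98.0 ± 34.0 CPM in SH-SY5Y (interaction -1.97 ± 0.29). Of 68 voltage-gated channel genes 20 were higher and 9 lower (42.6% called, median 0.50). CACNG7, a subunit that modulates calcium channels and AMPA receptors, rose from 0.819 ± 0.232 to 15.3 ± 1.47 CPM and from 60.8 ± 5.34 to 139 ± 13.3 CPM. KCNH6, a potassium channel of the ERG family, rose in SH-SY5Y from 6.78 ± 0.978 to 20.5 ± 4.69 CPM and was at 5.43 ± 1.04 and 4.25 ± 1.19 CPM in SK-N-BE(2)C. Among 53 neurotransmitter receptors 12 were higher and 5 lower (32.1% called, median -0.06), a sign unlike that of the count. SSTR2, a somatostatin receptor, rose from 19.2, 21.9, 31.6, 29.2 and 25.9 CPM to 62.1, 138, 211, 100.2 and 94.3 CPM in SK-N-BE(2)C, and the SH-SY5Y groups, at 5.11 to 9.08 and 4.52 to 7.03 CPM, overlapped. CHRNA5, a nicotinic receptor subunit, had the lowest interaction called among these receptors at 5 CPM or more in both lines (-0.68 ± 0.23, adjusted p = 0.027), which was lost without SK-N-BE(2)C replicate 3 at 7 d (-0.55, adjusted p = 0.069).

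Of 17 granin and neuropeptide genes 10 rose in SK-N-BE(2)C, and 5 did so in SH-SY5Y, and the interaction was higher for 2 and lower for 2. CHGA rose in SK-N-BE(2)C from 2025 ± 184 to 4112 ± 903 CPM and from 715 ± 189 to 2282 ± 471 CPM in SH-SY5Y, and SCG2 from 965 ± 104 to 2563 ± 519.9 CPM and from 88.9 ± 21.4 to 377 ± 88.3 CPM. The interactions were -0.65 ± 0.24 (adjusted p = 0.038) and -0.67 ± 0.24 (adjusted p = 0.035), and these calls were lost on leaving out any 1 of 12 (CHGA) or 10 (SCG2) of the 20 libraries. PCSK1N, an inhibitor of prohormone convertase, rose more in SK-N-BE(2)C (interaction 0.81 ± 0.14, adjusted p = 0.00018). Of 14 genes for catecholamine synthesis and storage 2 were higher and 1 lower. MAOA, which breaks down catecholamines, had opposite changes, from 52.98 ± 14.2 to 32.0 ± 15.7 CPM and from 35.4 ± 4.21 to 57.2 ± 5.24 CPM, while the synthetic enzyme DDC had a change of 0.34 ± 0.17 and of -0.70 ± 0.17.

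In the adrenergic transcription factor circuit 2 of 13 genes were higher and 1, MYCN, was lower (23.1% called). GATA3 was at 234 ± 27.2 and 323 ± 77.1 CPM in SK-N-BE(2)C and at 365 ± 25.1 and 275 ± 54.5 CPM in SH-SY5Y, and neither change passed the limit of 0.5 although their difference did (0.87 ± 0.20, adjusted p = 0.0024). Of 12 retinoid receptor and retino-sympathetic genes only CRABP1, which binds retinoic acid in the cytosol, was called, and this call was lost in the fit of all 45 libraries. It fell from 68.0 ± 16.5 to 7.80 ± 2.81 CPM and from 30.5 ± 8.24 to 11.5 ± 2.75 CPM.

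Matrix and mesenchymal genes were more often higher than lower by the interaction. Of 49 tested, 17 were higher and 5 lower in SK-N-BE(2)C (44.9% called, median 0.60). In SK-N-BE(2)C 15 rose and 13 fell, and in SH-SY5Y 7 rose and 21 fell. FN1 had the highest interaction called of those at 5 CPM or more in both lines and COL18A1 the lowest, both described above. COL5A2, a fibrillar collagen, rose by 0.91 and fell by 1.37. The transcription factor ZEB1 rose by 1.13 in SK-N-BE(2)C alone, and ZEB2 fell by 0.68 in SH-SY5Y alone. LOXL2, an enzyme that crosslinks collagen, was at 3.38 and 3.29 CPM in SK-N-BE(2)C and fell from 43.4 to 17.4 CPM in SH-SY5Y.

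Markers of the mesenchymal form of neuroblastoma were divided as well, with 3 rising and 3 falling in SK-N-BE(2)C against 1 and 5 in SH-SY5Y. Their summed level over 9 tested of 12 listed genes went from 264.5 to 313.4 CPM to 402.2 to 641.1 in SK-N-BE(2)C and from 225.4 to 308.2 CPM to 103.9 to 186.8 in SH-SY5Y. FN1 and LUM gave most of that sum, LUM being at 143 and 270 CPM and at 43.1 and 31.9 CPM, while SNAI2, which drives migration of neural crest cells, had changes of -1.96 and -2.80, and COL1A2 was at 0 in every SK-N-BE(2)C control. The summed level of the 13 adrenergic markers was higher after PB in both lines, at 11980 to 17020 CPM for SK-N-BE(2)C and 9756 to 13170 CPM for SH-SY5Y. PRRX1 and POSTN were not analysed here, and TWIST2 was too low to test. The part of a mesenchymal fraction of cells in these results was not tested, and in bulk libraries more cells of a kind and more RNA per cell cannot be told apart. Of 4 tested Schwann cell precursor markers 1 was higher and 1, ERBB3, was lower.

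Secreted genes of the senescence list followed the same lean, with 7 of 23 higher and 2 lower by the interaction (39.1% called, median 0.25). Against their own controls 7 rose and 6 fell in SK-N-BE(2)C (median -0.136), and 1 rose and 11 fell in SH-SY5Y (median -0.675). IGFBP3, a carrier of insulin-like growth factors, went in SK-N-BE(2)C from 7.604 ± 1.14 to 14.8 ± 6.50 CPM, with replicate 1 at 4.45 CPM and below every control, and from 22.9 ± 4.95 to 8.45 ± 4.06 CPM in SH-SY5Y (interaction 2.41 ± 0.46, adjusted p = 0.00049). Several cytokines of that list were not analysed here. Of 33 interferon response genes 1 was higher and 7 were lower by the interaction (24.2% called, near the 23.2% of all genes, median -0.30), and 3 of the 8 were below 1 CPM throughout in 1 line. IFI6, which acts against apoptosis and overlaps a gene on the other strand over 2745 bases, went from 7.38 ± 0.977 to 4.88 ± 1.24 CPM and from 16.8 ± 2.93 to 24.3 ± 3.54 CPM (interaction -1.14 ± 0.22, adjusted p = 0.00044).

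Of 27 receptor tyrosine kinases and neurotrophin receptors 9 were higher and 4 lower (48.1% called, median 0.25). ERBB3, a receptor for neuregulin, was at 16.0, 16.7, 9.22, 9.09 and 10.8 CPM and then at 12.8, 6.85, 5.37, 4.99 and 6.32 CPM in SK-N-BE(2)C. In SH-SY5Y it was at 1.05, 1.97, 1.11, 1.22 and 0.558 CPM and then at 9.47, 5.91, 4.03, 5.56 and 1.41 CPM. The groups overlapped in both lines, and the interaction was -2.94 ± 0.54 (adjusted p = 0.00036). NGFR, the low-affinity neurotrophin receptor, which overlaps a gene on the other strand over 11860 bases, had an interaction of 1.65 ± 0.52 (adjusted p = 0.02), with 28.6 ± 11.5 and 61.0 ± 34.9 CPM in SK-N-BE(2)C and 11.99 ± 1.99 and 8.26 ± 2.54 CPM in SH-SY5Y. PDGFRA fell from 165 to 68.0 CPM in SH-SY5Y and was near 1 CPM in SK-N-BE(2)C. ALK, the kinase that is often mutated in neuroblastoma, fell in SK-N-BE(2)C from 11.6 to 3.21 CPM beside 45 and 51.7 CPM in SH-SY5Y (interaction -2.11).

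Of 62 axon guidance genes 14 were higher and 10 lower (38.7% called, median 0.04), and 3 had opposite changes, each of them up in SK-N-BE(2)C (PLXNA2, NTNG1 and NTN3). The semaphorin and growth factor co-receptor NRP1 went in SK-N-BE(2)C from 143 ± 22.9 to 93.4 ± 30.6 CPM and from 8.92 ± 2.82 to 0.629 ± 0.322 CPM in SH-SY5Y, an interaction of 3.20 ± 0.46 (adjusted p = 3.8e-05). Its relative NRP2 differed the other way, falling by 2.32 and by 0.83.

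Of 35 MAPK feedback and immediate early genes 10 were higher and 5 lower (42.9% called). DUSP6, a phosphatase of ERK, was at 9.04 ± 4.92 and 27.9 ± 17.7 CPM in SK-N-BE(2)C and at 57.3 ± 7.63 and 56.4 ± 5.33 CPM in SH-SY5Y, and ATF3, a stress-induced transcription factor, fell from 18.3 ± 1.503 to 5.74 ± 2.00 CPM beside 13.0 ± 1.83 and 15.9 ± 2.52 CPM. Of 32 genes of the ATF4 pathway 9 were higher and 2 lower by the interaction (34.4% called, median 0.34). SK-N-BE(2)C raised 6 of them and lowered 10 (median -0.00581), and SH-SY5Y raised 2 and lowered 10 (median -0.335). CHAC1, which degrades glutathione, rose from 6.10 ± 1.78 to 20.8 ± 5.31 CPM beside 4.95 ± 0.66 and 6.93 ± 1.30 CPM. Of 30 BMP, ID and Notch genes 9 were higher and 4 lower by the interaction (43.3% called, median 0.43). SK-N-BE(2)C raised 4 of these and lowered 10 (median -0.253), and SH-SY5Y raised 3 and lowered 15 (median -0.513). HES1, a repressor downstream of Notch, was at 13.2 ± 2.49 and 8.64 ± 1.61 CPM in SK-N-BE(2)C and fell from 6.14 ± 1.20 to 1.20 ± 0.84 CPM in SH-SY5Y. The Notch ligand DLL3 had the lowest interaction called there at 5 CPM or more in both lines (-0.85 ± 0.24).

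Of 39 lysosomal genes 22 rose and 2 fell in SK-N-BE(2)C, beside 24.8% and 21.1% of all genes. In SH-SY5Y 18 rose and 1 fell, beside 18.2% and 16.2%, with 5 higher and 6 lower by the interaction. GAA, the acid glucosidase, rose more in SK-N-BE(2)C (1.29 ± 0.11 and 0.59 ± 0.11). TFEB, the transcription factor of lysosome genes, rose in SH-SY5Y from 4.88 ± 1.10 to 12.3 ± 3.13 CPM and was at 14.9 ± 2.95 and 12.1 ± 3.33 CPM in SK-N-BE(2)C. In cholesterol synthesis 3 of 24 were lower. Of these the transport protein STARD4 (-0.89 ± 0.34, adjusted p = 0.046) was lost on leaving out any 1 of 16 of the 20 libraries, with values of -0.93 to -0.66. In glycolysis and hypoxia 3 of 30 were higher and 4 lower, and those at 5 CPM or more in both lines ran from BNIP3L, a mitophagy receptor (0.97 ± 0.17), to PFKL, the liver phosphofructokinase (-0.86 ± 0.15).

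Contractile genes had 3 of 32 higher and 6 lower, with TAGLN3, a neuronal calponin relative, highest (1.97 ± 0.20). HOX genes had 2 of 15 higher and 3 lower, and at the same level limit they ran from HOXC6 (0.72 ± 0.12) to HOXD8 (-0.57 ± 0.18). HOXD8 fell under the limit without SK-N-BE(2)C control replicate 1 (-0.45) or 7 d replicate 3 (-0.44), and its whole length overlaps a gene on the other strand. Regulators of Polycomb and DNA methylation had 1 of 32 higher, the Polycomb subunit PCGF5 (0.92 ± 0.26), and 2 lower, among them the DNA methyltransferase DNMT3B (-0.82 ± 0.20).

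**Figure D4:**
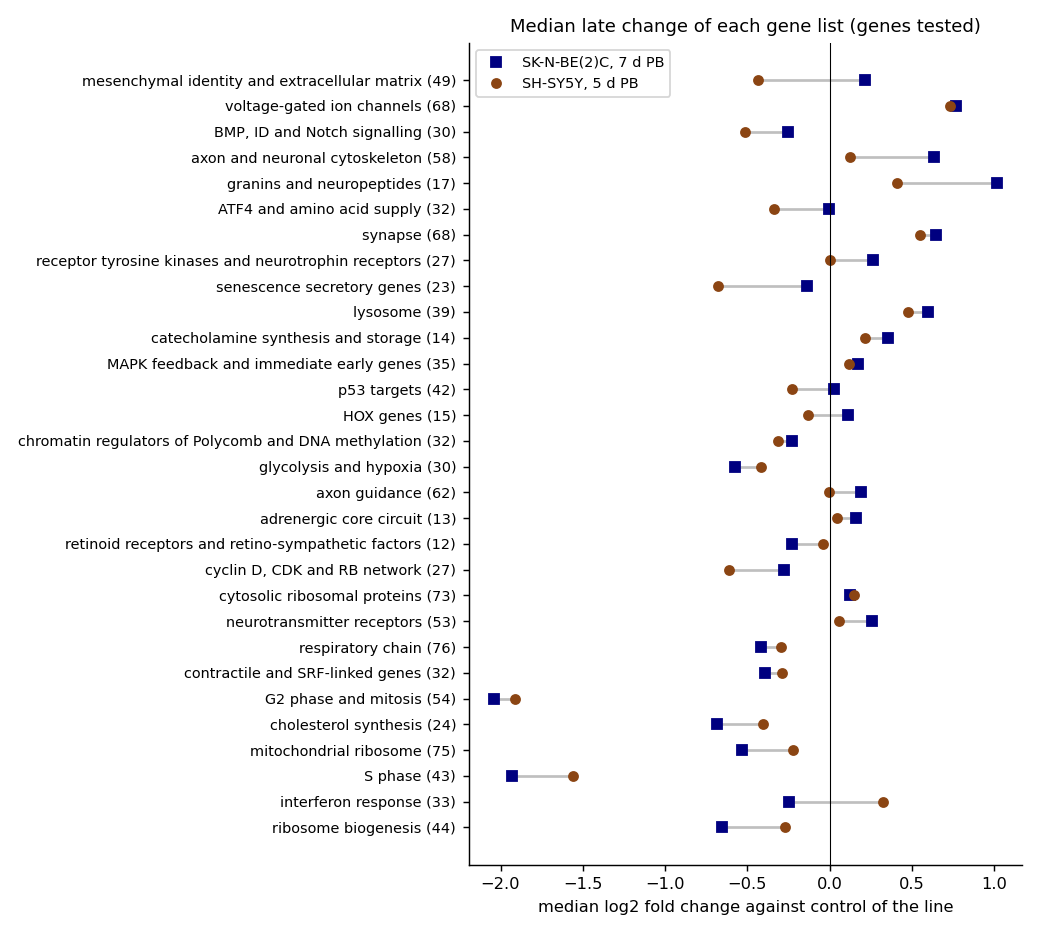
Median log2 fold change of each of 30 gene lists in SK-N-BE(2)C (squares) and SH-SY5Y (circles), sorted by median interaction, with the number of genes tested in brackets. The G2 and mitosis list lies near -2 in both lines (-2.04 and -1.91) and the S phase list at -1.93 and -1.56, whereas the mesenchymal and matrix list (0.22 and -0.43) and the interferon list (-0.25 and 0.33) lie on either side of 0.

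Fewer interactions were called at 24 h. In the fit of all 45 libraries, which tested 16282 genes, 332 genes (2.04%) had an interaction called between the lines at 24 h, with the same controls as the late comparison. The other settings tried gave 110 to 670 calls at 24 h. Of the 85 and 45 opposite genes, 8 and 6 were called at 24 h with the sign they had later and none with the other sign. LMO7 and TMEM88 were among them, LMO7 with a change of -0.19 in SK-N-BE(2)C against -2.28 in SH-SY5Y at 24 h (interaction 2.09, adjusted p = 6.5e-08). The other 10 named opposite genes had no interaction called at 24 h.

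IMR-32, another MYCN-amplified line with 5 controls and 5 libraries at 5 d of PB, shares no library with the comparison of the lines above and was treated for the same time as SH-SY5Y. PB raised 15.8% and lowered 16.5% of the 16282 genes there. Of the 85 genes up in SK-N-BE(2)C and down in SH-SY5Y, 18 rose in IMR-32, 26 fell and 41 did neither. Of the 45 in the other direction, 7 rose, 17 fell and 21 did neither. Opposite genes thus did not follow 1 of the lines as a group in IMR-32. Of the 325 genes that rose in SK-N-BE(2)C alone 90 rose in IMR-32, 24 fell and 211 did neither, and of the 401 that fell 4 rose, 141 fell and 256 did neither. Of the 125 that rose in SH-SY5Y alone 19 rose in IMR-32, 10 fell and 96 did neither, and of the 110 that fell 5 rose, 18 fell and 87 did neither. Genes that moved alike in both lines mostly moved that way in IMR-32 too, whichever line changed more. Of the 394 that rose more in SK-N-BE(2)C 281 rose in IMR-32, and of the 58 that rose more in SH-SY5Y 31 did. Of the 215 that fell more in SK-N-BE(2)C 165 fell in IMR-32, and of the 47 that fell more in SH-SY5Y 30 did. Replicate 5 stood apart among the IMR-32 libraries for FN1, at 84.0 CPM in its control beside 20 to 30.8 in the other 4. At 5 d replicate 5 was apart for LRRC4 (19.9 CPM beside 39.6 to 46.4), within the range of the LRRC4 controls (18.5 to 23.8). It was also apart at 5 d for TMEM88 (1.96 CPM beside 4.39 to 6.51) and RET (1.96 CPM beside 0.108 to 0.598). Without the 3 libraries of that replicate 18 of the 85 opposite genes rose in IMR-32, 28 fell and 39 did neither, and of the 45 in the other direction 7 rose, 18 fell and 20 did neither.

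**Figure D5:**
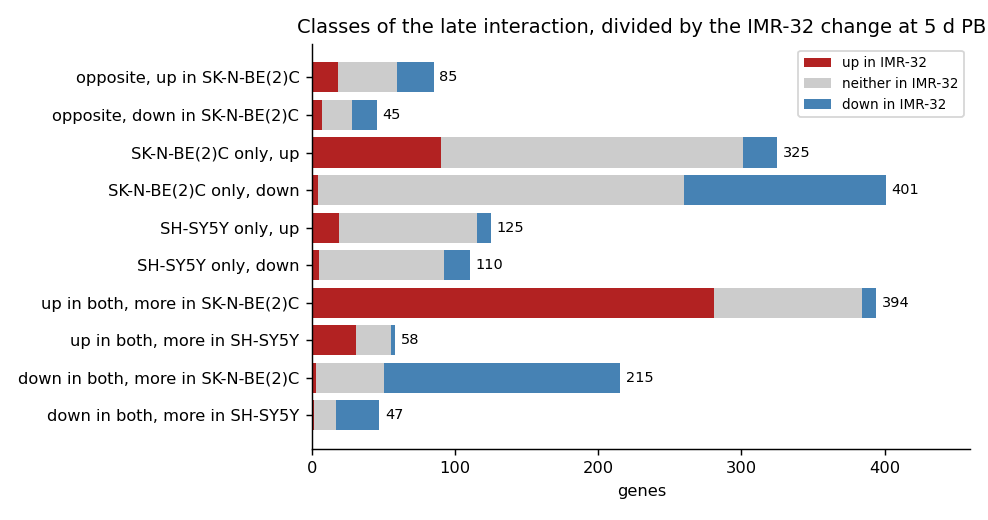
Number of genes in each class of the late interaction (bar length and number), divided by the change of the same genes in IMR-32 at 5 d PB. Opposite genes are split between up, down and neither, while genes that moved alike in both lines mostly moved that way in IMR-32. Of those that rose in both, 281 of 394 (more in SK-N-BE(2)C) and 31 of 58 (more in SH-SY5Y) rose in IMR-32. Of those that fell in both, 165 of 215 and 30 of 47 fell.

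Single genes showed each pattern. In IMR-32 the opposite gene LRRC4 rose by 0.81 (adjusted p = 0.0026) as in SK-N-BE(2)C, and FN1 fell by 1.89 as in SH-SY5Y. TMEM88 rose by 1.87 as in SH-SY5Y, and TRIL fell by 1.48 as in SK-N-BE(2)C. Without replicate 5 these changes were 0.93 for LRRC4, -1.37 for FN1, 2.01 for TMEM88 and -1.55 for TRIL. RET was near 0 in IMR-32, at up to 0.0608 CPM in the controls and 0.108 to 1.96 CPM at 5 d, and is given without a fold. Between IMR-32 and SH-SY5Y at the same 5 d, 3389 genes (20.8%) had an interaction called in that fit, and the SH-SY5Y libraries are shared with the comparison above.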

How the data were processed

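PolyA RNA libraries were read on a NovaSeq as pairs of 100 bases. The authors trimmed reads with Trim Galore 0.6.4, aligned them to hg19 with STAR (2.6.1d in the submitters' processing notes, another release in the study's methods) and deposited whole-number counts per gene, 1 table per line, which were joined by symbol; CPM tables and DESeq2 (1.32.0) results were not used here. R 4.3.3 with edgeR 4.0.16 fitted the 20 libraries (filterByExpr, minimum count 10; TMM factors 0.922 to 1.1; 1 mean per group; robust quasi-likelihood test, Benjamini-Hochberg adjustment). CPM values are TMM-scaled. The common biological coefficient of variation was 13.6%. On simulated counts of 14951 genes for this comparison, 30%, 68%, 98% and 100% of interactions of 0.5, 1, 2 and 4 (log2) were significant. Named genes were called, protein-coding and at 5 CPM or more in the control or late group of each line: per class the largest without overlap of groups (6, 4 or 2), the highest and lowest of each list, and, with no such limits, each called gene of the CDK network. Members and lists were chosen with earlier results of these data known. Gene positions are from GENCODE on GRCh37, matched for 25637 symbols and 319 older symbols. Alternatives were DESeq2 1.42.0, other scaling, filters, limits, libraries left out and a replicate block. Some called list members are not reported here by name.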

Additional observations from a re-analysis of the deposited data

Results flagged for a closer look

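The responses of the lines differed by the test of the difference itself, the interaction, in 12 classes of gene and 89 named genes. The classes held 85 and 45 genes with opposite changes, 325 that rose and 401 that fell in SK-N-BE(2)C alone, and 125 that rose and 110 that fell in SH-SY5Y alone. They also held 394 and 58 genes that rose in both and more in SK-N-BE(2)C or SH-SY5Y, 215 and 47 that fell in both and more in the one or the other, 1232 of no such pattern and 499 below 1 CPM throughout in 1 line. Log2 interactions (SK-N-BE(2)C minus SH-SY5Y) follow. Among genes with opposite changes that rose in SK-N-BE(2)C and fell in SH-SY5Y, the interaction was 4.02 for LRRC4, 2.99 for PRIMA1, 2.98 for LMO7, 2.90 for REEP1, 2.81 for FN1, 2.73 for PLXNA2 and 2.41 for IGFBP3. Among genes with opposite changes in the reverse direction it was -3.65 for TMEM88, -2.88 for NANOS1, -2.39 for UNC93B1, -2.38 for FGFR4, -2.20 for TRIL, -1.84 for COL18A1, -1.43 for MAOA and -1.14 for IFI6. Among genes that rose in SK-N-BE(2)C alone it was 2.92 for INSRR, 1.99 for SATB1, 1.99 for TRIM36, 1.63 for RNF112, 0.60 for RPL3, 0.97 for BNIP3L, 0.72 for HOXC6 and 0.92 for PCGF5. Among genes that fell in SK-N-BE(2)C alone it was -2.87 for NT5DC3, -1.88 for CRTAP, -1.82 for LONRF1, -1.70 for EPHB4, -0.73 for MRPL52, -0.64 for SDHD, -0.86 for PFKL and -0.57 for HOXD8. For those that rose in SH-SY5Y alone it was -1.38 for MOK, -1.27 for IGSF8, -1.25 for RET, -1.18 for RPL22L1 and -0.76 for RBL2. For those that fell in SH-SY5Y alone it was 2.40 for ENC1, 1.73 for CCDC3, 1.5 for P2RY6 and 1.49 for LAMP5. Where both lines rose and SK-N-BE(2)C more, it was 4.60 for ZCCHC12, 4.32 for SHC2, 3.32 for TP53INP1, 0.70 for GAA, 0.81 for PCSK1N, 2.46 for PAK3, 1.79 for SYNGR3 and 3.04 for CACNG7. Where both rose and SH-SY5Y more, it was -1.83 for C4orf50, -1.25 for GPR155, -0.67 for SCG2, -1.97 for SYT9 and -0.65 for CHGA. Where both fell and SK-N-BE(2)C more, it was -3.04 for ITPR3, -2.57 for CNN2, -2.22 for E2F7, -1.52 for CLSPN, -1.05 for PSRC1, -0.83 for AEN, -1.72 for CRABP1, -0.82 for DNMT3B, -1.61 for CDK2 and -0.64 for CDKN2C. Where both fell and SH-SY5Y more, it was 1.83 for FLT1, 1.31 for NEURL1B, 1.27 for GAS2L3, 3.20 for NRP1 and 1.76 for HES1. Among genes outside these classes it was 0.65 for MRPS6, 0.93 for NDUFC2, 1.27 for CHAC1, 0.87 for GATA3, 1.04 for DDC, 2.62 for SSTR2, 1.65 for NGFR, 1.61 for DUSP6 and 1.97 for TAGLN3. Also outside these classes it was -1.0 for LYAR, -1.98 for ATF3, -0.89 for STARD4, -1.65 for TFEB, -1.0 for MYCN, -1.99 for CNTNAP2, -1.97 for KCNH6, -0.68 for CHRNA5, -2.94 for ERBB3, -0.85 for DLL3 and -0.54 for E2F4. In the gene below 1 CPM throughout in SH-SY5Y it was 2.01 for CDKN2B.

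A library stood apart from the other 4 of its group for 28 of 356 pairs of gene and group, where chance gives about 1 in 20. SK-N-BE(2)C 7 d replicate 1 was at 10.96 CPM for LRRC4 (others 17.2 to 19.4), 32.0 CPM for NANOS1 (others 9.4 to 13.8), 3.43 CPM for FGFR4 (others 1.56 to 1.88), 14.3 CPM for ZCCHC12 (others 32.7 to 39.4), 38.6 CPM for GAS2L3 (others 15.2 to 21.8), 57.4 CPM for TP53INP1 (others 73.1 to 77.6), 9.25 CPM for ATF3 (others 4.54 to 5.51), 50.2 CPM for CNTNAP2 (others 15.2 to 17.4) and 12.8 CPM for ERBB3 (others 4.99 to 6.85). SH-SY5Y 5 d replicate 5 was at 3.21 CPM for LRRC4 (others 0.315 to 0.873), 89.6 CPM for GPR155 (others 121 to 129.9) and 166 CPM for STARD4 (others 257 to 288). SK-N-BE(2)C control replicate 1 was at 59.6 CPM for NANOS1 (others 35.0 to 40.5), 33.5 CPM for COL18A1 (others 16.8 to 21.4), 7.21 CPM for KCNH6 (others 4.62 to 5.32) and 10.9 CPM for HOXD8 (others 7.29 to 7.81). SK-N-BE(2)C control replicate 3 was at 8.04 CPM for TRIM36 (others 6.25 to 6.71). SH-SY5Y 5 d replicate 1 was at 207 CPM for IGSF8 (others 136 to 156) and 2.65 CPM for HES1 (others 0.499 to 1.03). SH-SY5Y control replicate 5 was at 12.1 CPM for RPL22L1 (others 13.9 to 14.2). SK-N-BE(2)C 7 d replicate 3 was at 164 CPM for ENC1 (others 110.0 to 118) and 2919 CPM for RPL3 (others 1846 to 2146). SK-N-BE(2)C control replicate 2 was at 11.2 CPM for CNN2 (others 18.6 to 19.7) and 40.5 CPM for MRPL52 (others 36.6 to 37.1). SK-N-BE(2)C 7 d replicate 2 was at 1906 CPM for MYCN (others 2539 to 2728) and 49.2 CPM for HOXC6 (others 40.7 to 42.0). SK-N-BE(2)C control replicate 5 was at 106 CPM for E2F4 (others 93.7 to 96.7). SH-SY5Y control replicate 1 was at 82.7 CPM for E2F4 (others 91.2 to 93.3).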

How the results depend on the processing

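Limits set the counts more than the fit did. With no fold limit 5367 interactions were called, 2661 lower in SK-N-BE(2)C, with 231 and 254 opposite genes, 574 up and 754 down in SK-N-BE(2)C alone, 337 up and 266 down in SH-SY5Y alone, and 510 calls at 24 h. With a fold limit of 1 there were 1590 (1040 higher, 550 lower), and the same classes held 22, 12, 58, 54, 13 and 18, with 110 calls at 24 h and 1637 between IMR-32 and SH-SY5Y. With a test against the fold limit itself (glmTreat) there were 1311 (803 and 508), and the classes held 25, 18, 106, 117, 22 and 30. Counting as 1 line alone every gene not called in the other gave 667, 668, 235 and 236. At 5 CPM in both lines the opposite classes held 33 and 25. SK-N-BE(2)C was also reduced to 3 replicates by leaving out 4 and 5, which lay close to replicate 3 in the controls. Then 59 rose and 71 fell in SH-SY5Y alone, in place of 125 and 110. Without a filter on low counts the HOX median was 0.69 in place of 0.11 and 219 genes were called at 24 h. The causes of these shifts were not tested beyond what each limit does by construction.

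Leaving out 1 library gave 3241 to 4043 calls (1787 to 2179 higher, 1234 to 1864 lower), 70 to 102 and 38 to 56 opposite genes, 274 to 398 and 310 to 506 in SK-N-BE(2)C alone, 95 to 161 and 95 to 121 in SH-SY5Y alone, 242 to 317 at 24 h and 3040 to 3625 between IMR-32 and SH-SY5Y. DESeq2 called 3695, of which 3446 were called by edgeR in the same direction. Scaling by RLE or by library size shifted the median interaction by 0.018 or -0.015. None of the 89 named genes changed direction under the alternatives run on them. Their calls were lost for 1 (CRABP1) with all 45 libraries, 25 under glmTreat, 6 without the filter and 10 with 3 replicates, and in 53 of 1780 fits that left out a library. With the replicate block, the replicate number as a term within each line, 3671 interactions were called, and 670 at 24 h. The numbers are not labelled as a shared batch, and same-numbered control and late libraries correlated at 0.0768 to 0.299 in SK-N-BE(2)C and 0.091 to 0.195 in SH-SY5Y. Every SH-SY5Y library matched its own number best and SK-N-BE(2)C did not, which is a hint from the data only. Alternatives for the 24 h and IMR-32 comparisons, IMR-32 without replicate 5 included, and the fits of 30 libraries were chosen after seeing the data.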
